A study of Mus musculus with 10 samples.

Results

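The let-7 and miR-98 family was followed in small RNA libraries of the mouse RPE/choroid/sclera, the pigment epithelium, vascular choroid and fibrous sclera behind the retina. Its members were chosen by name alone, as the 10 mature miRNAs let-7a-5p to let-7g-5p, let-7i-5p, let-7k and miR-98-5p, of 1340 mature miRNAs in the deposited table. All mice were wild type C57BL/6J at postnatal day 34, and a goggle holding a lens of -20 dioptres, which drives growing eyes toward myopia, had been worn on one eye since postnatal day 24, for 10 days. The 10 libraries are 5 right eyes and 5 left eyes, numbered 61, 64, 65, 66 and 68 on each side. The labels do not say which eye wore the lens, so right eyes are set against left eyes and no library is called treated. If the lens was not on the same side in every mouse, each group mixes lens-wearing and untreated eyes.

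The let-7 family was first known from the timing of development in Caenorhabditis elegans and is conserved in mammals, where its members build up as cells differentiate. A miRNA recognises mRNAs mainly by its seed, bases 2 to 8 from the 5′ end, so miRNAs with 1 seed share many targets. Known mammalian targets of let-7 include Hmga2, Lin28a, Lin28b and Ras mRNAs, and the LIN28 proteins in turn block the processing of let-7 precursors. Mature let-7 is usually cut from the 5p arm of its hairpin, and the opposite 3p arm is mostly discarded.

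The mature sequences are shown because the seed defines the family and single bases tell its members apart. They are from RefSeq (GRCm38.p6), written 5′ to 3′, with the seed in capitals.
mmu-let-7a-5p: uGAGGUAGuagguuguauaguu
mmu-let-7b-5p: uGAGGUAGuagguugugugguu
mmu-let-7c-5p: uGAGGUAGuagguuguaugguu
mmu-let-7d-5p: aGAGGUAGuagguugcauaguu
mmu-let-7e-5p: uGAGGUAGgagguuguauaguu
mmu-let-7f-5p: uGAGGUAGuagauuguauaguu
mmu-let-7g-5p: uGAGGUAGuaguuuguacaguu
mmu-let-7i-5p: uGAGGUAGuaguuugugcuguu
mmu-let-7k: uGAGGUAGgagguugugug
mmu-miR-98-5p: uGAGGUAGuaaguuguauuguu

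All 10 members carry the seed GAGGUAG. Among the 502 miRNAs with a mean signal of at least 10 that have a RefSeq sequence, the 9 with this seed are all members. Positions are counted from 1 at the 5′ end of let-7a-5p, whose base is given first. Against let-7a-5p, 3 members differ by 1 base, let-7c-5p by A19G, let-7e-5p by U9G and let-7f-5p by G12A. Another 4 differ by 2 bases, namely let-7b-5p (A17G, A19G), let-7d-5p (U1A, U16C), let-7g-5p (G12U, U18C) and miR-98-5p (G11A, A19U). The most distant is let-7i-5p, with G12U, A17G, U18C and A19U. The shortest is let-7k, whose 19 bases differ from let-7a-5p by U9G, A17G and A19G. No source used here says how reads that fit several members were assigned, so values of members that differ by 1 base are uncertain to that extent.

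Some members come from more than 1 gene. The sequence of let-7a-5p is in the hairpins of Mirlet7a-1 and Mirlet7a-2, and that of let-7c-5p in Mirlet7c-1 and Mirlet7c-2. That of let-7f-5p is in Mirlet7f-1 and Mirlet7f-2. In each case the mature sequence does not tell the 2 loci apart. The deposited position of each is at 1 locus, on chromosomes 9, 15 and 13 in that order. Whether the values sum over both loci is not known. In GRCm38, Mirlet7a-1, Mirlet7f-1 and Mirlet7d lie together on chromosome 13 (48538179 to 48538272, 48537829 to 48537917 and 48536012 to 48536114, minus strand) and overlap exons of the lincRNA 6720427I07Rik in GENCODE vM21. On chromosome 15, Mirlet7c-2 (85706603 to 85706697) and Mirlet7b (85707319 to 85707403, plus strand) overlap exons of the transcript Lncppara. Mirlet7f-2 (151912346 to 151912428) and Mir98 (151913214 to 151913321, plus strand) lie in an intron of the ubiquitin ligase gene Huwe1 on chromosome X. Mirlet7g is in an intron of Wdr82 (chromosome 9, 106178840 to 106178927, plus strand). Mirlet7e is in an intron of Spaca6 (chromosome 17, 17830352 to 17830444, plus strand). Mirlet7c-1 is in an intron of Mir99ahg (chromosome 16, 77599657 to 77599750, plus strand), and Mirlet7a-2 in introns of 3110039I08Rik and Gm49317 (chromosome 9, 41536716 to 41536811, plus strand). Mirlet7i overlaps an exon of D630033A02Rik (chromosome 10, 122985640 to 122985724, minus strand). The hairpin of let-7k (chromosome 5, 147283189 to 147283298, minus strand) overlaps no other annotated gene.

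The deposited values are a normalised signal with no stated method. The column sums lie between 1.18782e+07 and 1.1879e+07. Sorted by rank, the libraries share nearly the same values, with a span under 1% of the mean at 98 of the first 100 ranks, so equal values of an abundant miRNA mean equal ranks. Reads could not be recovered from these values, which leaves library depth unknown. Between 235 and 307 of the 1340 miRNAs were listed at 0 in a library. Markers of the labelled tissue were found above 0 in every library, namely miR-204-5p and miR-211-5p for RPE, miR-126a-3p and miR-126a-5p for endothelium, and 5 miRNAs of fibroblasts and smooth muscle. So were the 5 markers of photoreceptors and neurons, which summed to between 189 and 1330.4 k (k for 1000 units of signal) in right eyes and between 263 and 473 k in left eyes, the top value being right eye 68.

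Together the 10 members held 13.2 ± 3.31% of the signal in right eyes and 14.0 ± 2.44% in left eyes (SD, n = 5 each), with a range of 9.37% to 16.8% over the libraries. Signals of different members are compared here without a length correction, since 9 of the 10 are 22 bases long.

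The family was led by let-7a-5p, which had 1149.5, 1149.5, 788, 788 and 628 k in right eyes 61, 64, 65, 66 and 68, against 1149.5, 1149.5, 939.9, 885 and 788 k in the left eyes of the same numbers. It ranked second of all miRNAs in both eyes of numbers 61 and 64, where it took 1 and the same step, and was lowest in right eye 68, at rank 7. The groups overlapped. For let-7c-5p, which differs from it by 1 base, the signal was 404, 404, 154, 195 and 117 k in right eyes, against 404, 404, 226, 226 and 141 k in left eyes. Here again the 4 libraries of numbers 61 and 64 shared the highest step, and both eyes of 68 were lowest on their side. For let-7g-5p the signal was 195, 179, 252, 226 and 226 k in right eyes, against 195, 179, 195, 195 and 252 k in left eyes. Its highest values were thus in right eye 65 and left eye 68, and its lowest in number 64.

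Next in level was let-7i-5p, with 108, 105, 94.0, 94.0 and 60.2 k in right eyes, against 94.0, 105, 79.3, 89.7 and 73.1 k in left eyes. It was lowest in both eyes of number 68. For let-7d-5p the signal was 73.1, 73.1, 48.3, 48.3 and 43.0 k in right eyes, against 73.1, 65.3, 48.3, 57.3 and 46.1 k in left eyes. Each eye of numbers 61 and 64 lay above every eye of the other numbers. The flattest member was let-7f-5p, with 32.9, 32.9, 30.4, 28.9 and 30.4 k in right eyes, against 30.4, 31.6, 27.2, 30.4 and 26.1 k in left eyes. Its highest value was 1.26-fold its lowest.

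The 4 remaining members had the lowest signal. For let-7b-5p the signal was 22.5, 21.4, 8.56, 10.6 and 4.82 k in right eyes, against 19.99, 18.7, 11.95, 10.6 and 7.54 k in left eyes, a span of 4.67-fold, the widest of the 9 members kept, with the same split of numbers 61 and 64 from the rest. For let-7e-5p it was 6.97, 8.32, 4.37, 3.26 and 2.89 k in right eyes, against 7.54, 7.21, 4.82, 4.82 and 3.19 k in left eyes. Numbers 61 and 64 were again above the others on both sides. For miR-98-5p the signal, in single units, was 2373, 2188, 1424, 1221 and 977 in right eyes, against 2059, 2130.3, 1481, 1593 and 1209.8 in left eyes. Both eyes of numbers 61 and 64 were above all others. The weakest member, let-7k, had 12.03, 11.6, 11.4, 0 and 4.88 in right eyes, against 14.8, 11.4, 6.29, 11.2 and 5.44 in left eyes. It is listed at 0 in right eye 66, and its mean of 8.91 is under the filter of 10, so it was not tested.

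**Figure D1:**
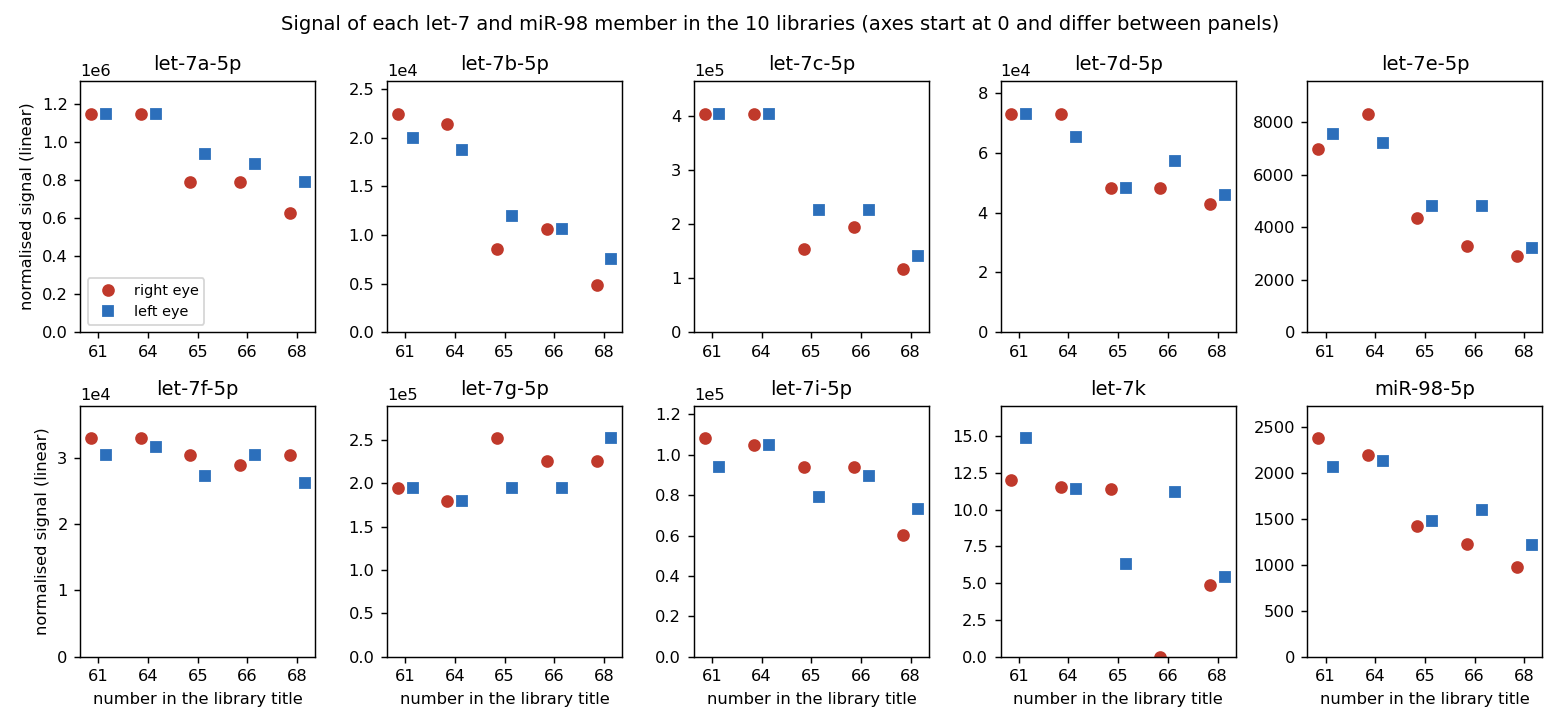
Normalised signal of each member (vertical axis, linear, starting at 0 and scaled per panel) by the number in the library title (horizontal axis), with right eyes as circles and left eyes as squares. In every panel but that of let-7g-5p the means of numbers 61 and 64 are the highest and that of number 68 the lowest. The panel of let-7f-5p spans only 1.26-fold.

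The order of the members by mean signal was let-7a-5p (942 ± 196 k), let-7c-5p (267 ± 122 k), let-7g-5p (209 ± 27.5 k), let-7i-5p (90.2 ± 15.3 k), let-7d-5p (57.6 ± 12.4 k), let-7f-5p (30.1 ± 2.20 k), let-7b-5p (13.7 ± 6.39 k), let-7e-5p (5.34 ± 2.01 k), miR-98-5p (1666 ± 486 in signal units) and let-7k (8.91 ± 4.53), each as SD over n = 10 libraries. Neighbours in this order kept it in all 10 libraries, except that let-7c-5p was above let-7g-5p in 6 of the 10. These 2 do not differ beyond their spread.

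As shares of the family, let-7a-5p held 57.2 ± 0.749% in right eyes and 59.2 ± 1.21% in left eyes (SD, n = 5 each), and its share was lower in the right eye of all 5 numbers. For let-7f-5p the share was 2.06 ± 0.445% in right eyes and 1.78 ± 0.211% in left eyes, higher in the right eye of all 5. The share of let-7c-5p was 15.3 ± 4.82% in right eyes and 16.3 ± 4.27% in left eyes, lower in the right eye of all 5 numbers, and that of let-7g-5p 14.7 ± 5.04% in right eyes and 12.7 ± 3.82% in left eyes. In numbers 61 and 64 the signals of let-7a-5p and let-7c-5p were equal in both eyes, so there only the family sum moved their shares. Some differences were small, as for let-7c-5p with 20.2 and 20.4% in right and left eye 61, and 10.50 and 10.52% in 68. For let-7g-5p and each of the remaining members the share was higher in the right eye in 3 of 5 numbers. No test was made on shares, which sum to 100% and so are not independent of each other.

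The largest shift in make-up was between numbers, in the shares of let-7c-5p and let-7g-5p. In numbers 61, 64, 65, 66 and 68 let-7c-5p held 20.3, 20.5, 12.9, 14.5 and 10.5% of the family (means of both eyes). In the same order let-7g-5p held 9.82, 9.11, 15.5, 14.6 and 19.5%. The ratio of let-7c-5p to let-7g-5p was 2.07, 2.25, 0.611, 0.864 and 0.518 in right eyes 61, 64, 65, 66 and 68, against 2.07, 2.25, 1.16, 1.16 and 0.559 in left eyes. Meanwhile the share of let-7a-5p stayed between 57.7 and 59.2% in the means of the 5 numbers. The 3 most abundant members, let-7a-5p, let-7c-5p and let-7g-5p, held between 86.5 and 88.7% of the family in every library.

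**Figure D2:**
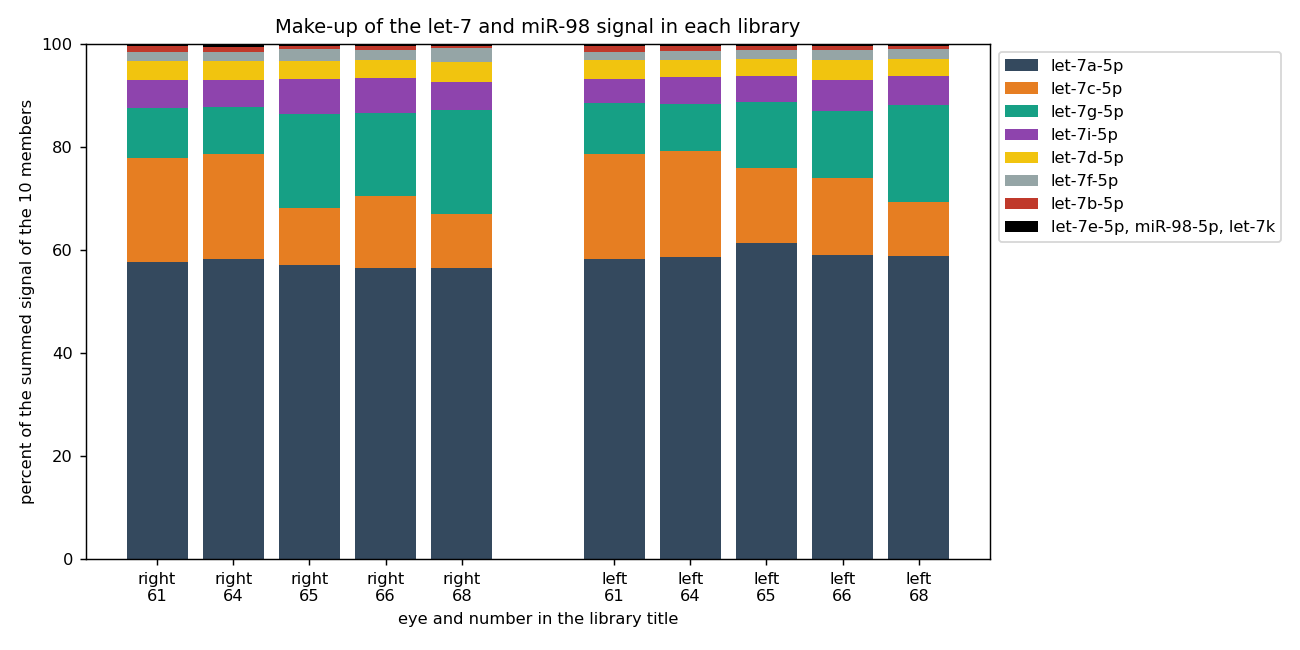
Share of each member in the summed signal of the 10 members (vertical axis, percent) for the 5 right and 5 left eyes (horizontal axis), as stacked bars. The let-7c-5p band is between 10.5 and 20.6% and the let-7g-5p band between 9.08 and 20.3%, while let-7a-5p stays between 56.5 and 61.3%.

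The right and left eyes were set against each other with limma across all 588 miRNAs with a mean signal of at least 10, with the number as a block and Benjamini-Hochberg adjustment. None of the 9 members kept passed an adjusted p of 0.05 (background 0%), and none had an unadjusted p under 0.05 (background 2.21%). The nearest were let-7c-5p, at a log2 fold change of -0.21 (SE 0.09, adjusted p = 0.967 in limma), and let-7a-5p, at -0.15 (SE 0.07, adjusted p = 0.967 in limma). Both were lower in the right eye in 3 numbers and tied on a rank step in the other two. Of the 9 members 6 had a lower mean in right eyes (background 45.4%), with a median log2 fold change of -0.10 for the members and 0.02 for all miRNAs tested. No member was lower in the right eye of all 5 numbers (background 0.85%) or higher in all 5 (background 2.04%). For no member did right and left eyes fail to overlap (background 0.17%).

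The remaining members had log2 fold changes of -0.15 for let-7b-5p, -0.04 for let-7d-5p, -0.15 for let-7e-5p, -0.10 for miR-98-5p, 0.10 for let-7f-5p, 0.08 for let-7g-5p and 0.05 for let-7i-5p. The 95% intervals ran from 0.807-fold to 1.01-fold for let-7a-5p and from 0.747-fold to 1.01-fold for let-7c-5p, right over left. The widest was that of let-7b-5p, from 0.711-fold to 1.14-fold. Rank steps tie many pairs, so these intervals hold for the normalised values and may be too narrow for the RNA itself.

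The members did not move alike from number to number. In number 68, 8 of the 9 were lower in the right eye, with let-7f-5p higher, and the median log2 difference was -0.27. In number 66, 6 were lower, 2 higher and 1 equal, with a median of -0.17. In number 65, 5 were lower, 3 higher and 1 equal, with a median of -0.06. Numbers 61 and 64 had 1 and 0 members lower, 4 and 5 higher and 4 equal each. Counts by number were not taken over all miRNAs, so these have no background and may not be particular to the family. The summed family was higher by 18.9 and 13.0 k in right eyes 61 and 64, and lower than the left eye by 152, 105 and 225 k in right eyes 65, 66 and 68 (right minus left of -152, -105 and -225 k).

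**Figure D3:**
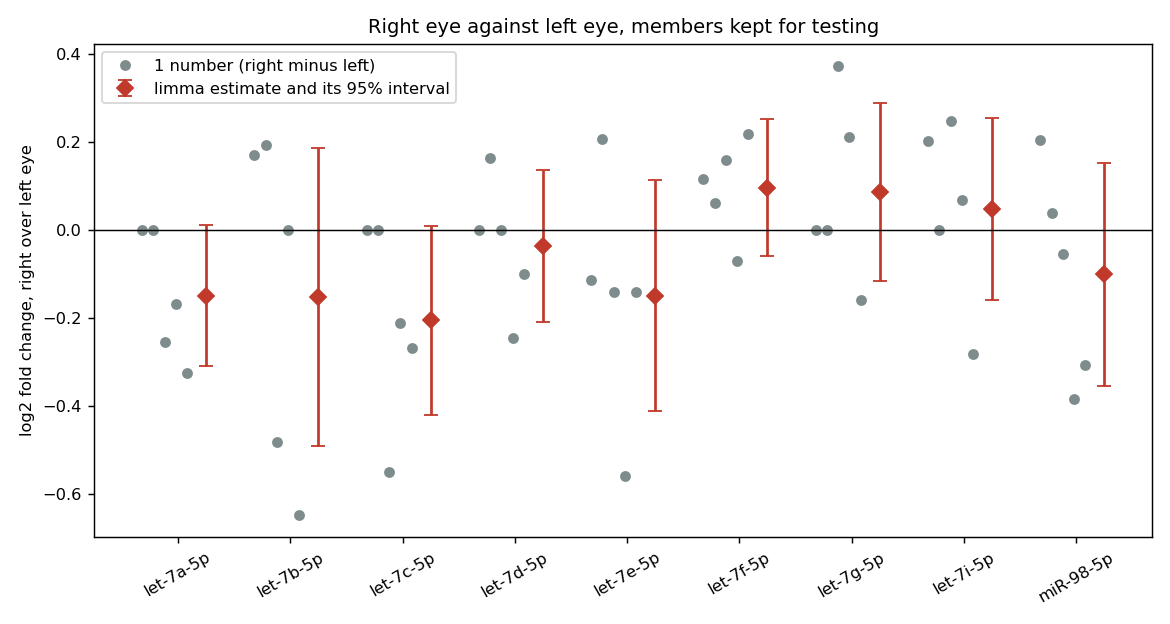
Log2 fold change of right over left eye (vertical axis) for the 9 members tested (horizontal axis), with a grey point per number and the limma estimate with its 95% interval in red. Every interval includes 0, and the points of let-7a-5p and let-7c-5p lie at or below 0.

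The 5 numbers were then compared with each other by an F test in the same limma fit, with the side as a term. A number may stand for a mouse, a day or a run, which the labels do not say, and the eyes of a number are its only repeat. Of the 9 members 3 differed between numbers at an adjusted p under 0.05, against 7 of all 588 miRNAs (background 1.19%). They were let-7c-5p, whose number means spanned a log2 range of 1.65 (adjusted p = 0.0177 in limma), let-7b-5p, with 1.81 (adjusted p = 0.0430), and let-7e-5p, with 1.35 (adjusted p = 0.0430). Their number means ran from 404 k in numbers 61 and 64 to 129 k in number 68 for let-7c-5p. For let-7b-5p they ran from 21.2 k in number 61 to 6.18 k in number 68.

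Close to the threshold were let-7a-5p (log2 range 0.71, adjusted p = 0.0518), let-7d-5p (0.72, adjusted p = 0.0557) and miR-98-5p (1.02, adjusted p = 0.0727) in limma. The others gave 0.66 for let-7i-5p (adjusted p = 0.119), 0.41 for let-7g-5p (adjusted p = 0.327) and 0.19 for let-7f-5p (adjusted p = 0.544). At an unadjusted p under 0.05 there were 7 of 9 members (background 23.3%). The median log2 range was 0.72 over the members and 0.67 over all miRNAs tested. The lowest mean was in number 68 for 8 of the 9 members (background 34.7%), the exception being let-7g-5p, which was highest there (background 28.4% for a highest mean in 68). These patterns were known from earlier results of the same data and are not independent of them.

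The calls depend on the libraries and on the model. With all libraries kept but no trend in limma, no member passed, with 7 at an unadjusted p under 0.05 (118 of all 588 miRNAs). Without right eye 68 no member passed either, with 8 at an unadjusted p under 0.05 (100 of all 584 miRNAs), and none passed without number 61 (7 unadjusted), 64 (7) or 68 (6). Over all miRNAs, the unadjusted counts were 114 of 582 without number 61, 104 of 582 without 64 and 77 of 585 without 68. Without number 65 only let-7c-5p passed, and without number 66 6 members did. At an unadjusted p under 0.05 there were 7 members in each of these settings. Over all miRNAs these counts were 128 of 586 without number 65 and 159 of 589 without 66. The F test sets the numbers against the spread of the right minus left differences around their mean, and rank steps make some of these differences exactly 0, as for let-7c-5p in numbers 61 and 64.

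Base composition moved with the numbers too. Over the 502 miRNAs with a sequence (85.4% of those kept), the correlation of a library's log2 deviations with the GC percent of the mature miRNA was 0.13 and 0.31 in right eyes 61 and 64 and 0.39 and 0.13 in left eyes 61 and 64. It was -0.27 in right eye 68 and -0.35 in left eye 68, and between -0.06 and -0.02 in the 4 libraries of numbers 65 and 66. Within the family GC content ranges from 31.8% in let-7f-5p and miR-98-5p to 45.5% in let-7b-5p among the members of 22 bases. Of the members of equal GC, let-7c-5p, let-7d-5p, let-7e-5p and let-7i-5p (40.9%) were correlated with each other at 0.78 to 0.96 over the libraries, let-7f-5p and miR-98-5p (31.8%) at 0.65, and let-7a-5p and let-7g-5p (36.4%) at -0.79. The part of base composition in the family's values was not tested. With a linear GC trend removed from each library, a setting added after seeing the data, 6 of the 9 members passed in limma, and let-7a-5p, let-7d-5p and miR-98-5p joined, against 12 miRNAs in all.

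Summed signals of cell type markers, those of the labelled tissue included, were read beside the family sum. The summed signal of the 4 leukocyte miRNAs lay between 7.95 and 11.1 k in right eyes and between 7.81 and 11.1 k in left eyes, and correlated with the family sum at -0.68. The 2 endothelial miRNAs lay between 198 and 342 k in right eyes and between 201 and 267 k in left eyes (-0.69). The 5 surface epithelium, cornea and lens miRNAs lay between 25.3 and 205 k in right eyes and between 63.8 and 245 k in left eyes (0.67). The 3 red cell miRNAs lay between 26.0 and 59.7 k in right eyes and between 35.0 and 53.0 k in left eyes (0.66). For photoreceptor and neuron miRNAs the value was -0.48, for fibroblast and smooth muscle -0.54 and for striated muscle -0.11. The 2 RPE miRNAs hardly varied, between 1959 and 1989 k in right eyes and between 1969 and 1989 k in left eyes (-0.13). Signal of abundant miRNAs follows rank here, so a flat sum does not show a steady RPE content. No marker of these lists was listed at 0 in any library, none passed the test between numbers, and their part in the family's values was not tested. In such bulk tissue, fewer cells of a type and less RNA per cell cannot be told apart.

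Across the 10 libraries 7 members moved together, let-7a-5p, let-7b-5p, let-7c-5p, let-7d-5p, let-7e-5p, let-7i-5p and miR-98-5p. Their 21 pairs had Pearson correlations of log2 signal between 0.78 and 0.98, with a median of 0.95. These 10 points share 5 numbers and the rank steps, so the values are descriptive. The 7 were grouped by these same correlations, so their range follows in part from the choice. Over all 45 pairs of members the median was 0.67. Against these 7, let-7f-5p had correlations of 0.51 to 0.71, and let-7k of 0.27 to 0.67 (Spearman 0.69 to 0.87). The member that ran the other way was let-7g-5p, at -0.85 to -0.53. Pairs close in sequence were not all alike in pattern. Of those that differ by 1 base, let-7b-5p and let-7c-5p were correlated at 0.98, while let-7a-5p and let-7f-5p were correlated at 0.51. Although let-7g-5p and let-7i-5p differ by 2 bases, their correlation was -0.53.

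**Figure D4:**
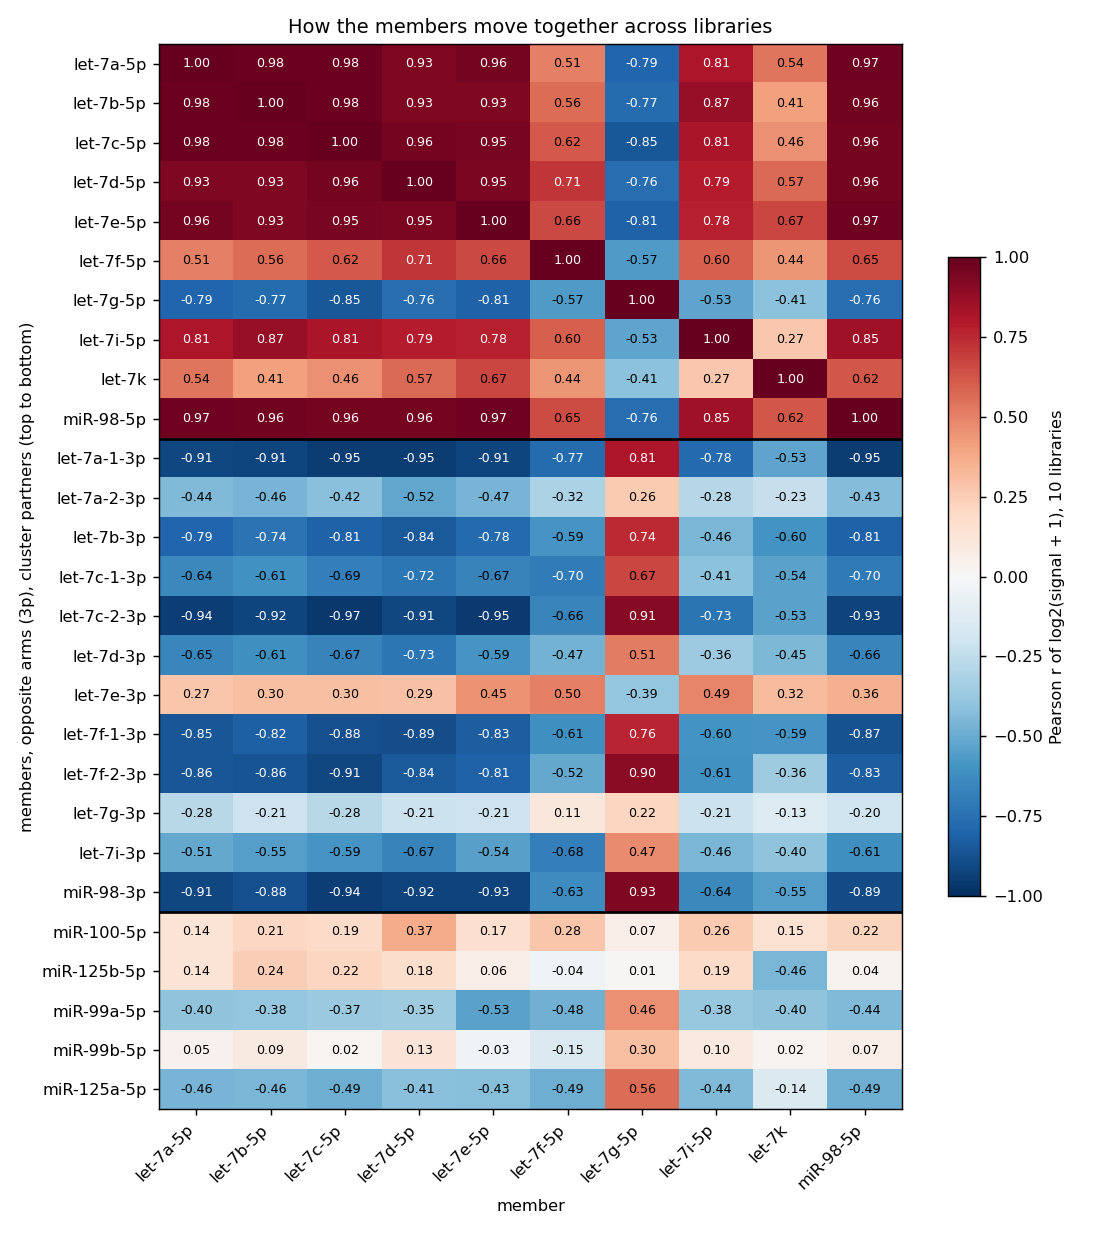
Pearson correlation of log2(signal + 1) over the 10 libraries between each member (columns) and the members, their opposite 3p arms and the cluster partners (rows, separated by lines). The 7 members named above form a block of 0.78 to 0.98, let-7g-5p is negative with them, and most 3p arms are negative with them too.

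The hairpins give a second readout, the opposite 3p arm, of which 12 rows are named for let-7 and miR-98 hairpins. While let-7a-5p was low in number 68, let-7a-1-3p was high there, with 82.3, 111, 243, 233 and 268 in right eyes 61, 64, 65, 66 and 68, against 121, 96.4, 219, 180.4 and 290.4 in left eyes. Its correlation with the family sum was -0.93, and all 4 eyes of numbers 61 and 64 lay below the other 6. For miR-98-3p the signal was 25.03, 15.7, 88.9, 70.1 and 71.6 in right eyes, against 21.2, 18.8, 42.5, 34.4 and 76.1 in left eyes, again with numbers 61 and 64 lowest. Its correlation with the family sum was -0.91. Further values were -0.86 for let-7f-1-3p, -0.85 for let-7f-2-3p, -0.80 for let-7b-3p, -0.68 for let-7d-3p, -0.67 for let-7c-1-3p, -0.55 for let-7i-3p, -0.46 for let-7a-2-3p and -0.26 for let-7g-3p. The exception was let-7e-3p, at 0.28. Of these arms let-7a-2-3p had a mean of 8.15, under the filter of 10, and was not tested. None of the other arms differed between numbers at an adjusted p under 0.05 in limma. The lowest in limma were let-7c-2-3p (adjusted p = 0.0502) and let-7a-1-3p (adjusted p = 0.0518). Together with let-7j, 7 of the 12 such rows kept had an unadjusted p under 0.05 (background 23.3%), among them let-7a-1-3p and let-7c-2-3p, which share a sequence.

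The sequences of let-7a-1-3p and let-7c-2-3p are shown because they are the same.
let-7a-1-3p: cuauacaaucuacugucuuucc
let-7c-2-3p: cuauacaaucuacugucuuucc
They differ by 0 bases, so no read can be assigned to only one of them. The deposited values were equal in 8 of the 10 libraries. In the other two, right eye 61 had 82.3 for let-7a-1-3p and 128 for let-7c-2-3p, and left eye 65 had 219 for let-7a-1-3p and 173 for let-7c-2-3p. The 2 rows are therefore not independent, and wherever both are counted or named they largely repeat each other.

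As a log2 ratio, the 5p arm was set against the 3p arm for the 6 hairpins of the family with a 1-to-1 name match and both arms kept, among 158 such hairpins. Between numbers it differed for 4 of the 6 by limma (background 10.8%), a comparison chosen after the values were seen. They were miR-98, with 6.51, 7.04, 3.99, 4.10 and 3.75 in right eyes 61, 64, 65, 66 and 68, against 6.54, 6.75, 5.09, 5.49 and 3.97 in left eyes, and let-7b, let-7d and let-7e. The log2 range of the number means was 3.03 for miR-98 (adjusted p = 0.0327), 2.57 for let-7b (adjusted p = 0.0314), 1.09 for let-7d (adjusted p = 0.0327) and 1.03 for let-7e (adjusted p = 0.0327). In each of these 4 hairpins both eyes of numbers 61 and 64 had a higher ratio than all other libraries. For let-7i the range was 1.21 (adjusted p = 0.0812) and for let-7g 0.34 (adjusted p = 0.922). Without right eye 68, where number 68 is left with its left eye only, the calls of these 4 hairpins did not hold. Without number 64 or 68 none passed either (5 and 4 unadjusted, against 37 and 30 of all 158 hairpins). Without 61 or 65 only let-7b passed.

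Between sides no hairpin of the 158 passed in limma (background 0%), with 3 at an unadjusted p under 0.05 (background 1.9%), none of them of this family. The mean log2 ratio of let-7e was 4.05 in right eyes and 4.28 in left eyes, lower in the right eye of all 5 numbers (adjusted p = 0.792). A share over all 158 hairpins was not taken for this direction, so it may not be particular to let-7e. For miR-98 it was 5.08 in right eyes and 5.57 in left eyes (adjusted p = 0.792). For let-7g, with the highest ratio of the 6, it was 12.9 in right eyes and 13.3 in left eyes (adjusted p = 0.820).

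**Figure D5:**
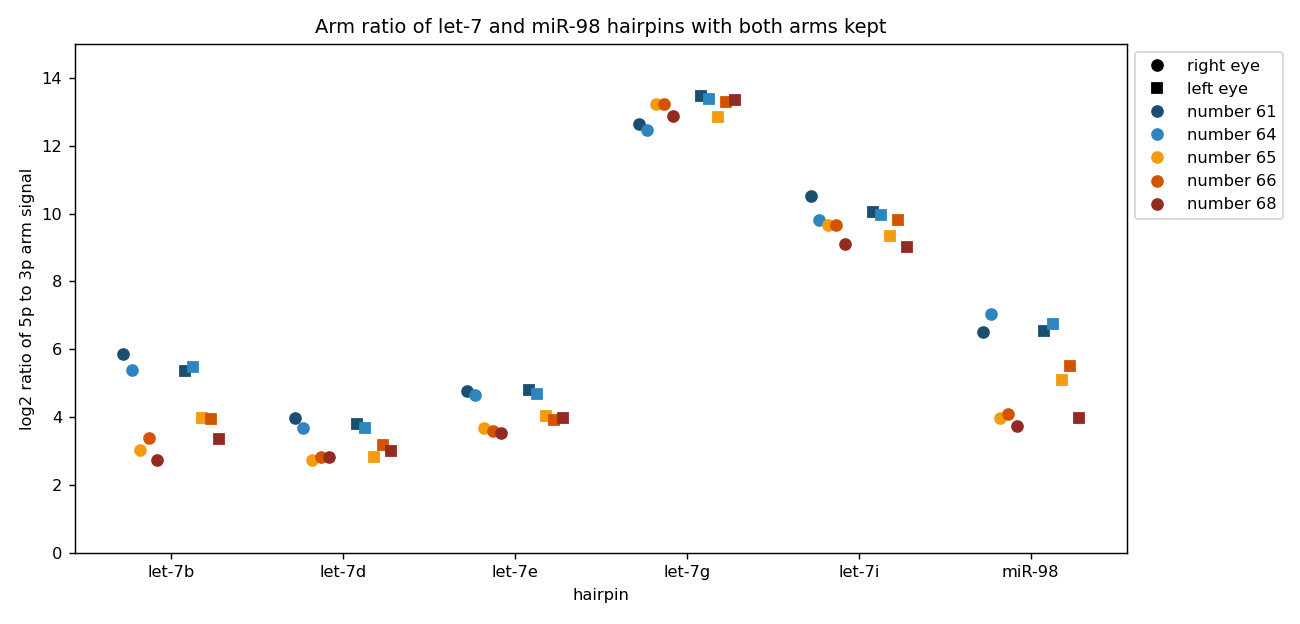
Log2 ratio of 5p to 3p arm signal (vertical axis) for the 6 hairpins of the family with both arms kept (horizontal axis), right eyes as circles and left eyes as squares, coloured by number. In let-7b, let-7d, let-7e and miR-98 the points of numbers 61 and 64 lie above all others, and in let-7g they do not.

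Several let-7 genes lie beside miR-99, miR-100 or miR-125 genes, and 5 such partners were read, miR-100-5p, miR-125b-5p, miR-99a-5p, miR-99b-5p and miR-125a-5p. The most abundant was miR-125b-5p, at 156 ± 13.4 k in right eyes and 153 ± 15.1 k in left eyes. None of the 5 passed between numbers in limma (background 1.19%), and 1 had an unadjusted p under 0.05 (background 23.3%), namely miR-99b-5p (adjusted p = 0.207). Their median log2 range was 0.28, against 0.67 for all miRNAs tested. With the family sum they were correlated between -0.47 (miR-125a-5p) and 0.19 (miR-100-5p). Of the neighbours on chromosome 17, let-7e-5p spanned a log2 range of 1.35 between numbers and miR-99b-5p of 0.39, and their correlation was -0.03.

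Outside the family, 329 miRNAs with a mean signal of at least 100 and more than 1 value were ordered by their Pearson correlation with the log2 family sum over the 10 libraries. The 5 highest were miR-676-3p (0.97), miR-877-5p (0.97, a mirtron of an Abcf1 intron), miR-652-3p (0.97), miR-574-5p (0.95) and miR-106b-3p of the Mcm7 cluster (0.95). In level, miR-676-3p lay between 6596 and 9429.9 in right eyes and between 6972 and 8966 in left eyes. The 5 lowest were miR-340-5p (-0.97), the rows of equal sequence let-7c-2-3p (-0.94) and let-7a-1-3p (-0.93), miR-30e-5p (-0.93) and miR-30b-5p (-0.92). The GC content of the 5 highest was between 47.8 and 65%, and that of the lowest with a sequence between 27.3 and 40.9%. In all, 13 of the 329 were above 0.9 and 7 below -0.9. By Spearman correlation 1 of the 5 highest and 2 of the 5 lowest were among the first 5, so the exact names depend on the measure.

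By member, miR-676-3p was the most like non-member of let-7a-5p (0.96), let-7c-5p (0.98) and let-7d-5p (0.96). The most like for let-7b-5p was miR-652-3p (0.98), for let-7e-5p miR-106b-3p (0.98) and for miR-98-5p miR-877-5p (0.99). The pattern of let-7g-5p was most like that of miR-338-3p (0.98), a miRNA known from oligodendrocytes and neurons, and that of let-7i-5p like miR-27a-5p (0.94). For let-7f-5p the closest was miR-1839-5p at 0.86, and for let-7k miR-3475-3p at 0.82.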

How the data were processed

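Small RNA of 5 right and 5 left eyes was sequenced from TruSeq libraries, per the labels' protocols, which speak of retinae while the tissue label names RPE/choroid/sclera. Bowtie and Partek with GRCm38 (mm10) are named, per the submitters' processing notes, with no versions. The authors deposited a normalised signal per mature miRNA. The method of normalisation, the depth and the handling of reads that fit several members are not given in the sources used here. Of the signal values above 0, 7.31% were whole within 0.001, so count models were not used and no intervals for counting error are given.

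Values were analysed as log2(signal + 1) for the 588 miRNAs with a mean of at least 10, so fold changes of low signals are understated. limma 3.58.1 in R 4.3.3 was fitted over all 588, with trend, two-sided tests and Benjamini-Hochberg adjustment. Side was tested with the number as a block, since the protocol compares the eyes of an animal, and numbers by an F test with side as a term. The numbers come from the titles. After subtracting the mean of each side, the eyes sharing a number had correlations of 0.12, 0.45, 0.01, -0.13 and 0.28. Eyes of different numbers were not compared in this way, so these values can neither establish nor refute the pairing. The p-values measure the spread between these samples, which nothing in the labels places in separate litters. The script was tested on simulated data. Named miRNAs were all members, other rows named let-7 or miR-98, the 5 cluster partners, the 5 highest and 5 lowest in correlation with the family sum, and the most like non-member of each member. The GC correction and the test of the arm ratio between numbers were added after seeing the data. Members and lists were chosen with earlier results of these data known. The file's stop coordinate is 1 past the last base in RefSeq.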

Additional observations from a re-analysis of the deposited data

Results flagged for a closer look

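In 3 of 42 checks over signals and shares of the members and the family sum, 1 eye stood apart from the 4 remaining eyes of that side, where chance gives about 1 in 20 for independent values. Left eye 68 had 251975 for let-7g-5p, with the other left eyes at 195 or 179 k. Right eye 68 had 60162 for let-7i-5p, with the other right eyes between 94.0 and 108 k. In left eye 65 let-7a-5p held 61.3% of the family. Shares, sums and signals are built from the same values, and rank steps tie some of them.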

How the results depend on the processing

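Between right and left eyes no member passed in limma under any alternative tried, and no other miRNA did. At an unadjusted p under 0.05 there were 0 to 2 members. The count was 2 without number 61 (25 of all 582 miRNAs) and 1 without number 64 (21 of 582). It was also 1 with a mean of at least 100 (6 of 339). Without the replicate block no member passed either, with 0 at an unadjusted p under 0.05 (12 of all 588 miRNAs). With both eyes of a number left out in turn, let-7d-5p ran from -0.087 to 0.016 and let-7i-5p from -0.0029 to 0.13 (log2). The 5p to 3p ratio had 0 to 1 hairpins passing between sides when a number was left out.

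Between numbers 3 members and 7 miRNAs passed. The counts were 6 and 23 with a mean of at least 100, 0 and 0 without the trend (7 members and 118 miRNAs unadjusted), 6 and 12 with the GC correction, 0 and 0 without right eye 68 (where the lone eye of 68 is assumed to vary like the others), and 6 and 26 without a term for side. Rescaling by median ratios gave 12 miRNAs. With a number left out they were 0 to 6 members and 0 to 22 miRNAs. For the arm ratio, a pseudocount of 10 gave 30 hairpins against 17, without right eye 68 it was 0 (0 of the family), and with a number left out 0 to 21 hairpins and 0 to 4 of the family.

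With let-7a-5p left out of the sum, the shares were 1.93% for let-7b-5p, 37.8% for let-7c-5p, 8.52% for let-7d-5p, 0.768% for let-7e-5p, 4.59% for let-7f-5p, 32.7% for let-7g-5p, 13.5% for let-7i-5p, 0.00128% for let-7k and 0.243% for miR-98-5p. By Spearman correlation 1 and 2 of the 5 most and least like miRNAs were shared. The causes of these changes were not tested. Some settings also had fewer libraries or miRNAs. Rank steps and unknown depth limit every value of an abundant member.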

Other observations

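A row outside the family's list, let-7j, has a 24-base mature sequence that follows let-7i-5p over its first 22 bases but for G8U, counted from 1 at the 5′ end of let-7i-5p. That base is in the seed, so let-7j does not carry the family's seed. Its signal was 622, 585, 538, 538 and 337 in right eyes 61, 64, 65, 66 and 68, against 521, 494, 432, 473 and 363 in left eyes, higher in the right eye of 4 of the 5 numbers. It did not pass between sides (log2 fold change 0.18, adjusted p = 0.967 in limma) or between numbers (adjusted p = 0.132). Of the members, its log2 signal was most like that of let-7i-5p over the 10 libraries, with a Pearson correlation of 0.94, against 0.19 to 0.80 for the other 8 members with a positive value and -0.43 for let-7g-5p. Its level was 490.3 ± 91.3 (SD, n = 10) and that of let-7i-5p 90.2 k.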
